A study of Mus musculus with 27 samples.

Results

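Prg4, which encodes the joint lubricant lubricin, Hmga2, which encodes a chromatin protein of embryonic growth, and 5 genes of the repair matrix (Tnc, Postn, Cd44, Has1 and Has2) are described across brain, meninges and skull of mice after ultraviolet B light on the head. These 7 genes were taken by symbol from the 37095 genes counted, and all 7 were found. Prg4 and Hmga2 were chosen by their rise in skull at 24 h against control and 0.5 h, so their skull values are a description with no test. The other 5 were set beside them, and all 7 are described without a test in both comparisons that use the skull libraries of 24 h.

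RNA was counted in 27 mouse libraries: brain, meninges and skullcap (called skull), each with 3 untreated controls and 3 libraries each taken 0.5 h and 24 h after irradiation. The UVB light had a wavelength of 311 nm and a stated power of 2 mW, and fell on the interparietal bone, a plate of the rear skull. The untreated groups received no UVB, and the labels name no allele, strain, sex or age for any group. The meninges were scraped off the skullcap. The labels do not say whether replicates are separate animals, and p-values then measure only the spread between these samples, which may be technical. The title of the series concerns light on the cranium, immunity at the brain's borders and recovery after stroke, and no library here is labelled with stroke.

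Each library held between 14.2 M and 27.3 M counts. Levels are in CPM, counts scaled to library size on the TMM-scaled totals of each tissue. Summed markers followed the dissection: the 10 neuron markers summed to at least 8437 CPM in every brain library and at most 71.5 CPM in skull, and the 10 osteoblast and osteocyte markers to at least 3415 CPM in skull and at most 39.0 CPM in brain. The meninges held 1352 to 2648 CPM of those bone markers, so bone RNA was present there in every library. Brain control 1 stood apart for several of the genes described: it held 36.8 CPM of Cd44, 6.0 of Has2 and 2.23 of Hmga2, against at most 3.82, 0.459 and 0.263 in the other brain controls. The same library held 4.87 CPM of the keratin Krt14, which had 0 counts in the other 8 brain libraries, and a cell cycle marker sum of 61.2 CPM against 22.5 and 24.2. The tested differences of Cd44, Has2 and Hmga2 that rest on the brain controls are not all printed. Those printed below from the main fits are given with and without that library. Calls under other settings are given with it only.

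Lubricin is a long, mucin-like glycoprotein that coats cartilage, tendon and synovium and keeps their surfaces from sticking. Tenascin-C (Tnc) and periostin (Postn) are matrix proteins made by fibroblasts and bone-forming cells, and both are known from healing wounds and from the periosteum. Hyaluronan is a large sugar polymer that is spun out through the cell membrane by the synthases Has1 and Has2, and CD44 is its main receptor on the cell surface, which lubricin is also known to bind. Hmga2 bends DNA in growing tissue, is repressed by let-7 microRNAs and is largely silent in adults.

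The Prg4 gene lies on chromosome 1 from 150449412 to 150466165 on the minus strand of GRCm38 (mm10). A run of repeats in the middle of lubricin is known to carry its sugar chains, and a stretch of the coding repeat is shown because Prg4 had the largest fold in skull at 24 h. In the transcript ENSMUST00000164600.7, of 4263 bases, the 12-base unit in capitals occurs 49 times, with 45 of the 48 steps from one unit to the next measuring 24 bases. All copies lie in exon 6 of 12 and span 1278 bases, 30.0% of the transcript, and the stretch printed is coding throughout. The stretch printed runs over 192 bases, chr1:150455478-150455669 on the minus strand, from the GENCODE M21 transcripts.
Prg4 repeat: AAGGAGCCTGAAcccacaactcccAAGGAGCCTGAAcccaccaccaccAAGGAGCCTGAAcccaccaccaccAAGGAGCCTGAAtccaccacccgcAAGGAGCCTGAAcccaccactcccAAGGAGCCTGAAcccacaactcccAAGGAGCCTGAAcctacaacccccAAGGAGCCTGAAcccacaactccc
A read from such a stretch can align at several places in the same exon, and how reads with several alignments were counted is not given in the sources used here.

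In skull, Prg4 was low before and 0.5 h after UVB and was among the abundant transcripts at 24 h. The controls had 3.09, 10.8 and 4.35 CPM. The libraries of 0.5 h had 9.24, 4.89 and 2.43 CPM. Those of 24 h had 1163, 809 and 1468 CPM, so every library of 24 h lay far above all 6 others, which overlapped each other. The log2 fold change of 24 h against control was 7.55 ± 0.70 (SE), about 187-fold, and it ranked 1 of 17426 genes. Against 0.5 h it was 7.71 ± 0.71, and 0.5 h against control was -0.16 ± 0.65. In raw counts the 3 libraries of each group summed to 304, 283 and 57869. Since these are bulk samples, a change in the number of cells of a type and a change in RNA per cell cannot be told apart, here and below.

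Skull control 2 had the most Prg4 of the controls and also the most RNA of meningeal fibroblast markers, a summed 584 CPM against 105 and 157 in the other controls. At 24 h that sum was lower, from 76.7 to 101 CPM. Without control 2 the log2 fold change of Prg4 at 24 h was 8.28. Markers of tendon and cartilage, tissues known for lubricin, summed to 1106 to 1267 CPM in the controls and 835 to 1071 CPM at 24 h, which is lower in every library, with none of the 10 markers at 0. Skeletal muscle markers summed to 938 to 3575 CPM and 1178 to 2342 CPM, and osteoblast and osteocyte markers to 3432 to 5463 and 4420 to 4695 CPM. The neutrophil marker sum was 5956 to 10337 CPM in the controls and 4649 to 6786 CPM at 24 h. Of the 12 marker lists, skeletal muscle had the median sum furthest above its control median at 24 h, 2221 against 1697 CPM. Its sums overlapped those of the controls, however. Of its 10 tested markers 0 were called higher and 0 lower, and their median log2 change was -0.25. The part of these cell types in the level of Prg4 was not tested. Prg4 shares 204 exon bases with Tpr on the opposite strand, and the strand setting of the counting is not given in the sources used here. Tpr, a nuclear pore protein, averaged 166 ± 15 CPM in skull controls and 186 ± 6.32 CPM at 24 h (SD, n = 3 each).

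**Figure D1:**
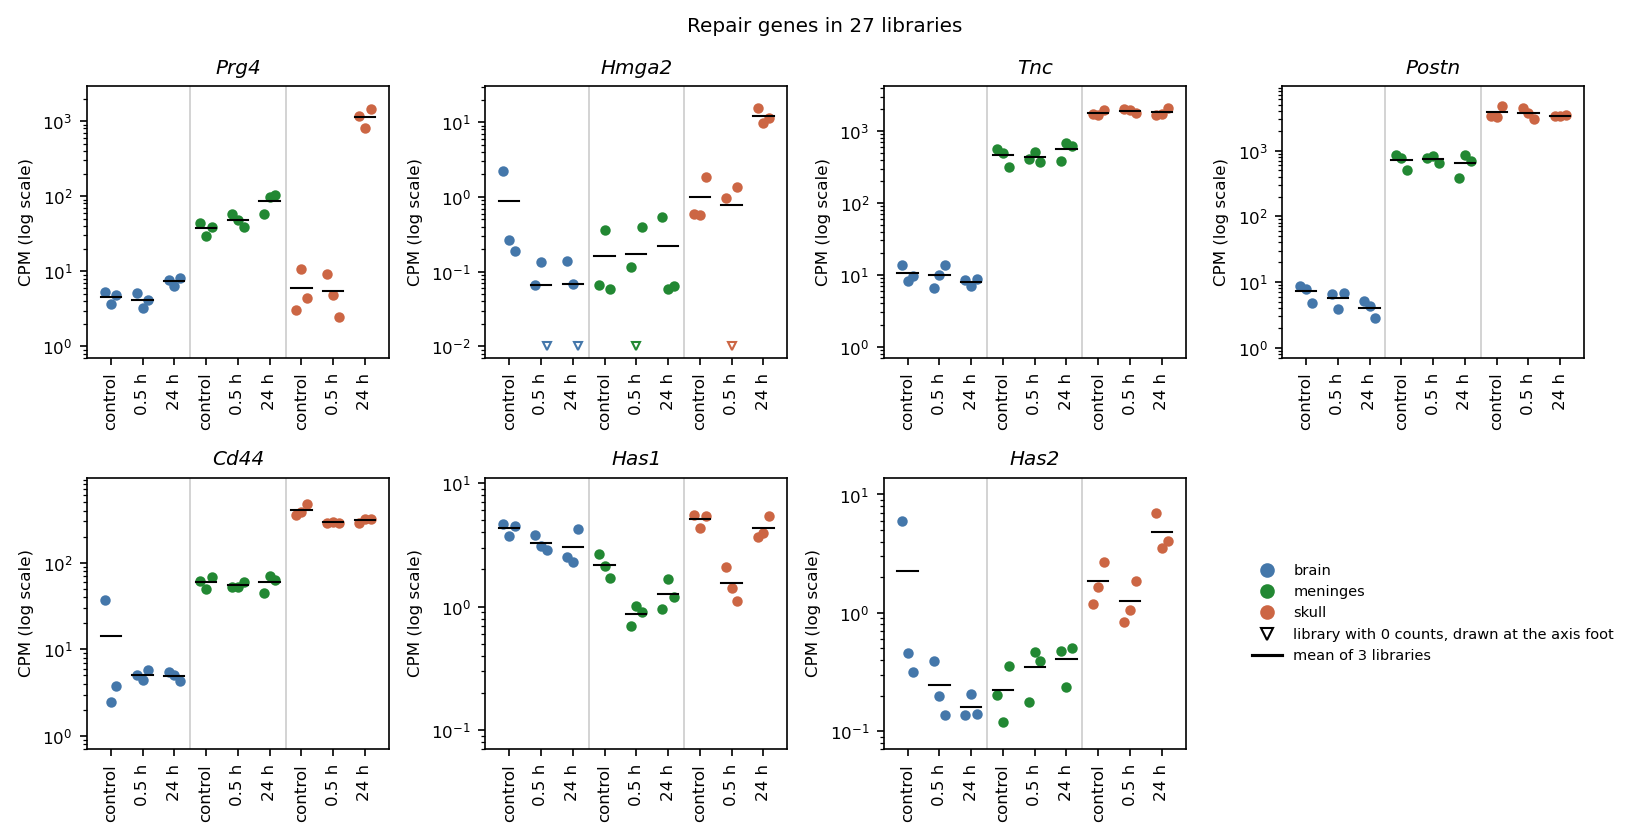
CPM of each of the 7 genes (log axis, a separate range in each panel) in every library of the 9 groups, with the mean of 3 libraries as a line and libraries with 0 counts as open triangles at the foot. Prg4 and Hmga2 in skull at 24 h lie above all other skull libraries, the skull groups of Tnc and Postn overlap, and brain control 1 is high for Cd44, Has2 and Hmga2.

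The meninges, whose libraries were not used to choose the gene, also had more Prg4 at 24 h. The controls had 43.6, 29.8 and 39.1 CPM, the libraries of 0.5 h had 58.3, 48.4 and 38.3 CPM, and those of 24 h had 57.5, 96.7 and 105 CPM. Every library of 24 h was above every control, while 0.5 h overlapped both. The log2 fold change at 24 h was 1.20 ± 0.26 (95% interval 0.61 to 1.80), about 2.30-fold, with an adjusted p of 0.0279 in edgeR's quasi-likelihood test. Prg4 was the only one of the 5 genes tested in that comparison that passed, where 8.42% of all tested genes were called. The call is a narrow one: it was lost when meninges control 1, 2 or 3, the 0.5 h library 2 or the 24 h libraries 2 or 3 were left out (log2 fold change 1.04 to 1.32, adjusted p 0.0530 to 0.101). It was also lost with no count filter (adjusted p 0.0830), with the 2 groups fitted alone (0.0519), with all 27 libraries fitted together (0.0519) and with the replicate numbers as a block (0.0825).

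At 0.5 h the log2 fold change of Prg4 in meninges was 0.37 ± 0.26 (adjusted p = 0.617), and none of the 5 tested genes passed where 0.874% of all genes did. Has1 alone had an unadjusted p under 0.05 there, and DESeq2 and limma-voom called 0 as well. Between 24 h and 0.5 h Prg4 differed by 0.84 ± 0.26 with an adjusted p of 0.155. None of the 5 passed in that comparison, with Prg4 alone at an unadjusted p under 0.05, where 2.34% of all genes did. DESeq2 called Prg4 there, and limma-voom none. Skull tissue adjoins the meninges and held far more Prg4 at 24 h, so the bone markers are set beside it: their sum in meninges was 1887 to 2648 CPM in the controls and 1352 to 2044 CPM at 24 h. The osteocalcin gene Bglap had 577, 802 and 473 CPM in the meningeal controls and 171, 361 and 210 CPM at 24 h. Bglap was also lower in skull itself at 24 h, at 458 ± 160 CPM against 1260 ± 460 CPM in the skull controls (SD, n = 3). In the meninges, markers of meningeal fibroblasts summed to 2039 to 2610 CPM in the controls and 2023 to 2712 CPM at 24 h. Those of tendon and cartilage summed there to 1881 to 2921 and 1781 to 2364 CPM. The part of adjoining skull in the meningeal level of Prg4 was not tested.

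In brain Prg4 was low. The controls had 5.31, 3.61 and 4.78 CPM, those of 0.5 h 5.11, 3.27 and 4.16 CPM, and those of 24 h 7.75, 6.33 and 8.25 CPM. All 3 libraries of 24 h were above all 6 others, but the difference from control, 0.70 ± 0.23 on the log2 scale (95% interval 0.20 to 1.19), had an adjusted p of 0.118. Against 0.5 h it was 0.83 ± 0.24 with an adjusted p of 0.168. At 0.5 h it differed from control by -0.14 ± 0.24 (adjusted p = 0.997). Of the 5 genes tested in brain none passed in any of these comparisons, where 2.62% of all genes passed for 24 h against control, 0.22% for 24 h against 0.5 h and 0.0055% for 0.5 h against control. At an unadjusted p under 0.05 there were 2 (Prg4 and Postn), 1 (Prg4) and 0, and DESeq2 and limma-voom called none. The meningeal and the brain change of Prg4 at 24 h differed by 0.49 ± 0.57 on the log2 scale (95% interval -0.71 to 1.69, adjusted p = 0.771). None of the 7 genes passed in that test of the difference, where 1.32% of all genes did. Hmga2 and Has2 had an unadjusted p under 0.05 there, and brain control 1 had the most of both in brain. The difference of Has2 was 4.62 ± 1.30 (adjusted p = 0.0785) with that library and 2.03 (adjusted p = 0.381) without it. That of Hmga2 was 4.09 ± 1.97 (adjusted p = 0.358) and 2.02 (adjusted p = 0.752). DESeq2 called Has2 and limma-voom none.

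Hmga2 lies on chromosome 10 from 120361275 to 120476469 on the minus strand. Its skull controls had 0.594, 0.569 and 1.86 CPM, the libraries of 0.5 h had 0.960, 0 and 1.37 CPM, and those of 24 h had 15.3, 9.91 and 11.5 CPM. The libraries of 24 h thus stood above the other 6, which overlapped. The counts behind these levels were 47, 42 and 620 over the 3 libraries of each group. The log2 fold change of 24 h against control was 3.63 ± 0.71, about 12.4-fold, rank 10 of 17426, and against 0.5 h it was 3.94 ± 0.72. At 0.5 h it was -0.31 ± 0.84 from control. Per kb of exon the skull level of Hmga2 at 24 h was 1.80 ± 0.407 CPM per kb, against 268 ± 77.1 for Prg4 (SD, n = 3), so Hmga2 stayed a low transcript. Outside skull Hmga2 did not pass the filter on low counts in brain or meninges: no library other than brain control 1 had more than 0.539 CPM, and 3 of the 18 had 0 counts. The gene shares 140 exon bases with 1700006J14Rik on the opposite strand, which averaged 1.12 ± 0.430 CPM in skull controls and 1.14 ± 0.551 CPM at 24 h. Cell cycle markers, which rise with dividing cells, summed to 670 to 928 CPM in skull controls, 948 to 1166 CPM at 0.5 h and 723 to 1099 CPM at 24 h. The sums of 24 h overlapped those of the controls. Of the 10 markers 2 were called higher and 0 lower at 24 h, where 20.9% of all genes were called.

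The 250 bases before the start of Hmga2, chr10:120476470-120476719 on the minus strand of GRCm38.p6 (RefSeq), are printed because C and T make up so much of the strand.
Hmga2 upstream: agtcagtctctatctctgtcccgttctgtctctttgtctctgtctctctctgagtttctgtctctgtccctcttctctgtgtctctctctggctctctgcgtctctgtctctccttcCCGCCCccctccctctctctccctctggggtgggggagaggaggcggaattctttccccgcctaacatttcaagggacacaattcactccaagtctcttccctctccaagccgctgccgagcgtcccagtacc
C and T were 70.8% of these bases, and 0.414% of 32851 windows of the same length were at least as high. The capitals mark a GC box (GGGCGG read on the other strand), which 32.7% of the windows hold.

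Tnc and Postn, the 2 most abundant of the 7 genes per kb in untreated skull, stayed within their spread after UVB. Tnc (chromosome 4, 63959785 to 64047015, minus strand) averaged 1779 ± 148 CPM in skull controls, 1897 ± 121 at 0.5 h and 1835 ± 232 at 24 h, and the 3 groups overlapped. Postn (chromosome 3, 54361109 to 54391037, plus strand) averaged 3798 ± 864, 3718 ± 732 and 3369 ± 78.3 CPM, also with overlap. At 0.5 h the tested log2 fold changes were 0.09 ± 0.12 for Tnc (95% interval -0.17 to 0.35, adjusted p = 0.695) and -0.03 ± 0.17 for Postn (-0.41 to 0.35, adjusted p = 0.941). At 24 h they were 0.04 ± 0.12 and -0.17 ± 0.17. In meninges at 24 h Tnc was 0.30 ± 0.27 (adjusted p = 0.557) and Postn -0.16 ± 0.30 (0.805) from control. In brain at 24 h Tnc was -0.39 ± 0.25 (0.430) and Postn -0.83 ± 0.29 (0.128), on levels of 4.07 to 10.4 CPM for the 2 genes. Tnc shares 176 exon bases with 8030451A03Rik on the opposite strand, which had 6.23 ± 0.904 CPM in skull controls.

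**Figure D2:**
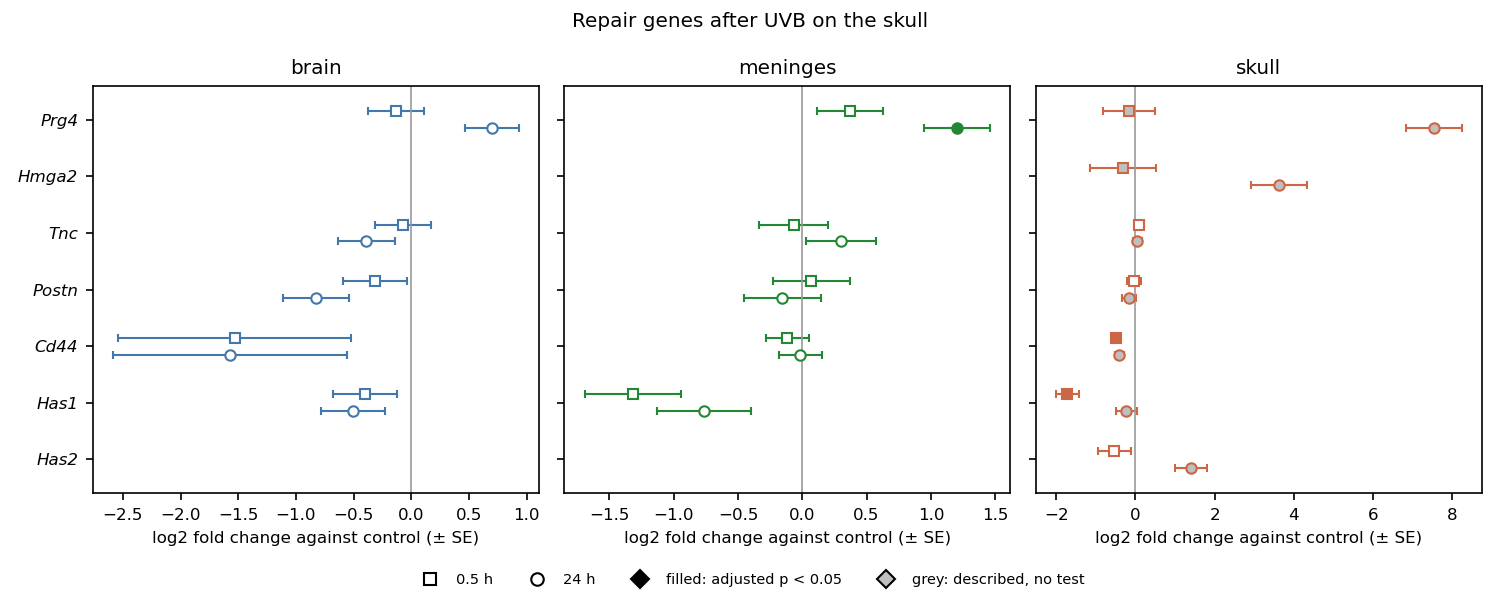
Log2 fold change against control with its SE for each gene at 0.5 h (squares) and 24 h (circles), in brain, meninges and skull, each panel with its own range. Filled marks passed an adjusted p of 0.05 (Prg4 in meninges at 24 h, Has1 and Cd44 in skull at 0.5 h), grey marks are described with no test, and genes under the count filter have no mark.

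In skull at 0.5 h Has1 and Cd44 fell. Has1 (chromosome 17, 17843323 to 17855205, minus strand) had 5.53, 4.33 and 5.39 CPM in skull controls and 2.1, 1.42 and 1.11 CPM at 0.5 h, with no overlap. The log2 fold change was -1.72 ± 0.29 (95% interval -2.34 to -1.10, adjusted p = 0.00828), about 3.30-fold lower. Without the 0.5 h library 2 the adjusted p was 0.0540 at -1.67. At 24 h Has1 was closer to the controls, at 3.68, 3.92 and 5.37 CPM, with libraries 1 and 2 still below every control. Its log2 difference at 24 h was -0.23 ± 0.26 from control and 1.49 ± 0.29 from 0.5 h. These levels rest on 247, 80 and 217 counts over the 3 libraries of each group. In meninges Has1 had 2.67, 2.13 and 1.71 CPM in the controls, 0.700, 1.01 and 0.898 CPM at 0.5 h, and 0.958, 1.66 and 1.21 CPM at 24 h. Every meningeal library of either time lay below every control, but the changes of -1.32 ± 0.38 and -0.76 ± 0.37 had adjusted p of 0.143 and 0.233. In brain they were -0.40 ± 0.28 at 0.5 h (adjusted p = 0.982) and -0.50 ± 0.28 at 24 h (0.351).

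The start of Has1 is shown because it was the member with the largest tested change in skull. Its 250 upstream bases, chr17:17855189-17855438 on the minus strand of GRCm38.p6 (RefSeq), hold the letters of a cyclic AMP response element, in capitals. The RefSeq start lies inside the GENCODE gene model given above, so the end of the printed stretch overlaps that model.
Has1 upstream: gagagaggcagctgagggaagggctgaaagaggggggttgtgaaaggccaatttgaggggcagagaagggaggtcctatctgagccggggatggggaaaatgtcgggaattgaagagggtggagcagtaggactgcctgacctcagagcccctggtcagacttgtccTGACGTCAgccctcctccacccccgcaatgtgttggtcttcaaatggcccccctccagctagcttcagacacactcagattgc
Such a match, TGACGTCA, stands in 1.55% of the 32851 windows, and it is a description of letters, not a shown site. Each window was searched on both strands for 6 motifs: the cyclic AMP response element, the AP-1 site TGANTCA (in 6.75% of windows), the clock factors' E-box CACGTG (6.02%), the GC box GGGCGG (32.7%), the TATA box TATAAA (12.4%) and the TEAD site GGAATG (12.6%). Each of the 2 windows printed held 1 match in all, so none overlapped another motif. The table held 7 windows for 5 of the 7 genes, and Prg4 and Has2 had no entry.

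Has2 (chromosome 15, 56665627 to 56694539, minus strand), the synthase known for long hyaluronan in growing mesenchyme, was highest in skull at 24 h. It had 1.19, 1.65 and 2.69 CPM in skull controls, 0.840, 1.06 and 1.85 CPM at 0.5 h, and 6.96, 3.55 and 4.02 CPM at 24 h. All 3 libraries of 24 h were above the other 6. The described log2 fold change was 1.40 ± 0.39 against control (rank 206 of 17426) and 1.94 ± 0.40 against 0.5 h, and the tested change at 0.5 h was -0.54 ± 0.42 (adjusted p = 0.495). Has2 shares 182 exon bases with Has2os on the opposite strand, which averaged 0.524 ± 0.257 CPM in skull controls and 0.431 ± 0.225 CPM at 24 h. Per kb of exon, Has1 and Has2 in skull were at 1.12 ± 0.145 and 0.435 ± 0.182 CPM per kb in the controls, 0.341 ± 0.112 and 0.295 ± 0.125 at 0.5 h, and 0.956 ± 0.202 and 1.14 ± 0.436 at 24 h. These spreads did not overlap in the controls, and they overlapped at both later times.

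Cd44 (chromosome 2, 102811141 to 102901665, minus strand) had 358, 389 and 481 CPM in skull controls, 291, 296 and 288 CPM at 0.5 h, and 286, 317 and 322 CPM at 24 h. All 6 irradiated libraries lay below all 3 controls. At 0.5 h the log2 change was -0.49 ± 0.11 (95% interval -0.72 to -0.26, adjusted p = 0.0241), and at 24 h -0.41 ± 0.11. The call at 0.5 h was lost without control 3, which had the most Cd44 (-0.35, adjusted p = 0.0518), without any one of the 0.5 h libraries (0.0598 to 0.0967) and in the fit of the 2 groups alone (0.0548). In the fit of all 27 libraries the adjusted p was 0.678, with brain control 1 among those libraries. Neutrophils and macrophages carry CD44, and at 0.5 h their marker sums in skull, 7153 to 10448 and 2211 to 2608 CPM, overlapped those of the controls, 5956 to 10337 and 1689 to 2470 CPM. At 24 h they were 4649 to 6786 and 1528 to 1874 CPM, with medians of 6600 and 1839 CPM against 8979 and 2391 CPM in the controls, and Cd44 was also below the controls then. The part of these cells in the level of Cd44 was not tested. Has1 and Cd44 were the only genes of the 5 tested in skull at 0.5 h that passed, where 4.9% of all genes did.

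**Figure D3:**
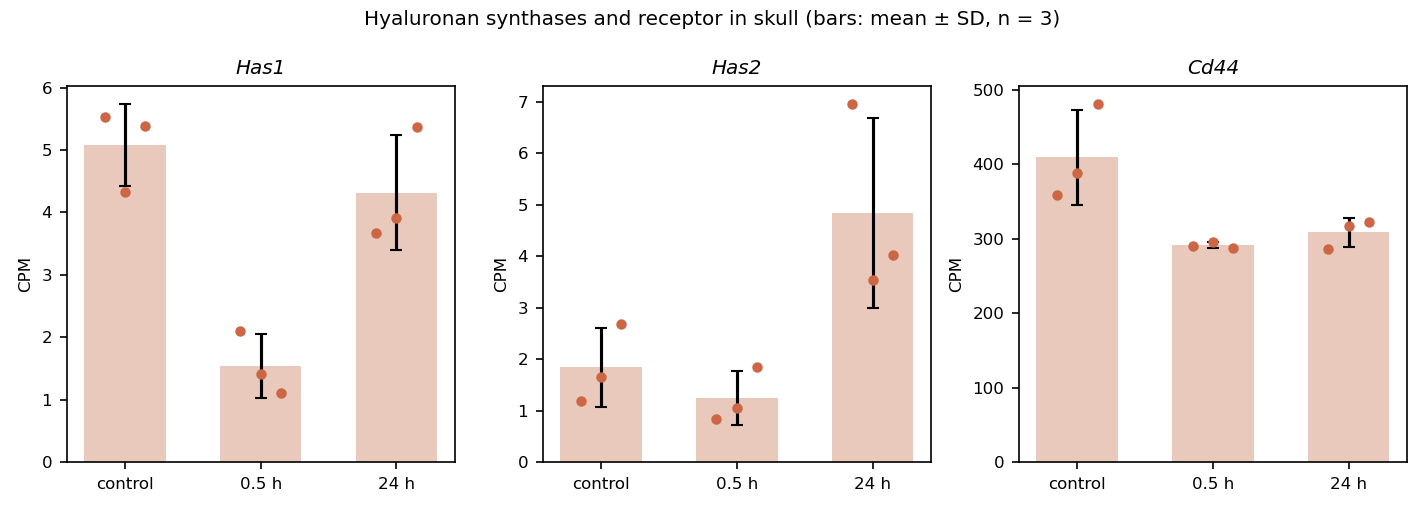
CPM of Has1, Has2 and Cd44 in the 9 skull libraries (points), with bars for the mean and SD of 3 libraries in each group. Has1 dips to 1.11 to 2.1 CPM at 0.5 h and is higher again at 24 h, Has2 is highest at 24 h, and Cd44 is below the controls at both times.

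In meninges Cd44 averaged 60.0 ± 9.52 CPM in the controls, 55.4 ± 4.33 at 0.5 h and 59.4 ± 13.0 at 24 h, a log2 change of -0.01 ± 0.17 at 24 h (95% interval -0.38 to 0.35, adjusted p = 0.972). In brain the change at 24 h was -1.57 ± 1.01 (adjusted p = 0.481) with brain control 1 and 0.66 (adjusted p = 0.312) without it, so its direction rested on that library. Has2 did not pass the filter in brain or meninges. Its meningeal levels were 0.119 to 0.355 CPM in the controls and 0.237 to 0.507 CPM at 24 h, at most 8 counts in a library.

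Untreated levels of the 7 genes were compared between the tissues. In a fit of all 27 libraries, Prg4 was higher in meninges than in brain by 2.93 ± 0.42 on the log2 scale, Tnc by 5.34 ± 0.29, Postn by 6.52 ± 0.35 and Cd44 by 1.91 ± 0.55. Without brain control 1 the difference of Cd44 was 4.16 (adjusted p = 1.82e-13). Has1 was lower in meninges by 1.07 on that scale (a change of -1.07 ± 0.28, adjusted p = 0.00182). Has2 (-3.43 ± 0.82, adjusted p = 0.000704) and Hmga2 (-2.61 ± 1.11, adjusted p = 0.0401) were called lower as well, but without brain control 1 they were at -0.85 (adjusted p = 0.262) and -0.54 (0.731). All 7 passed in that comparison, where 70.5% of all genes did, so passing it sets none of them apart.

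Skull controls were above meningeal controls by 2.19 ± 0.25 for Tnc, 2.64 ± 0.29 for Postn, 2.99 ± 0.56 for Cd44, 1.44 ± 0.29 for Has1 and 3.20 ± 0.83 for Has2. All 5 tested genes passed (adjusted p at most 0.00271), where 48.2% of all genes did. Prg4 was 2.40 ± 0.41 lower in skull than in meninges as fitted (log2 difference -2.40), and Hmga2 2.77 ± 1.13 higher, both given without a test. Against brain, Tnc, Postn and Cd44 were higher in skull by 7.52 ± 0.32, 9.16 ± 0.39 and 4.90 ± 0.62, and these 3 of 5 tested genes passed where 75.6% of all did. Without brain control 1 the difference of Cd44 was 7.14 (adjusted p = 7.48e-17). Has2 did not differ there with all libraries (-0.23 ± 0.66, adjusted p = 0.757), and without brain control 1 it was higher in skull by 2.35 (adjusted p = 0.000976). Per kb of exon, the order in skull controls was Postn at 436 ± 99.3 CPM per kb, Tnc at 229 ± 19.1, Cd44 at 60.4 ± 9.42, then Prg4 at 1.42 ± 0.961, Has1 at 1.12 ± 0.145, Has2 at 0.435 ± 0.182 and Hmga2 at 0.149 ± 0.109. The spreads of Prg4 and Has1 overlapped. At 24 h Prg4, at 268 ± 77.1 CPM per kb, stood between Postn at 387 ± 9.0 and Tnc at 236 ± 29.8, and its spread overlapped that of Tnc.

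Other genes of the same pathways were read from 8 lists, and in skull at 24 h against control 20.9% of all tested genes were called, with a median log2 change of -0.0014 over all genes. Of the joint surface, tendon and cartilage genes, the usual company of lubricin, 0 of 19 tested rose and 6 fell, and the median was -0.41. Cilp2, an intermediate layer protein of cartilage, had 69.1 ± 3.29 CPM in controls and 33.1 ± 2.51 at 24 h (-1.06 ± 0.11, adjusted p = 5.9e-05). The tendon membrane protein gene Tnmd went from 26.2 ± 5.03 to 12.5 ± 0.206 CPM (-1.07 ± 0.14, adjusted p = 0.000426), and Abi3bp, which encodes a matrix protein, from 107 ± 8.72 to 63.7 ± 6.60 CPM (-0.75 ± 0.10, adjusted p = 0.000435). Creb5, the transcription factor known to drive Prg4 in articular cartilage, had 18.8, 26.5 and 38.5 CPM in controls. It had 15.7, 18.6 and 12.8 CPM at 0.5 h and 15.6, 9.61 and 13.2 CPM at 24 h. Every library of either time was below every control, and the 2 times overlapped. Creb5 was not called at 0.5 h, while at 24 h it was (-1.12 ± 0.27 against control, adjusted p = 0.0162). That call was lost without the 24 h library 3 (adjusted p = 0.0522) and with no filter (0.0589). It is named here for its role, after its values were seen. Scx, the tendon transcription factor scleraxis, is likewise named after its values were seen: it had 11.2, 11.6 and 17.1 CPM in controls and 20.6, 15.4 and 14.1 CPM at 24 h, with overlap (0.34 ± 0.21, adjusted p = 0.292). At 24 h against 0.5 h the list had 0 higher and 6 lower of 19, where 16.1% of all genes were called. In meningeal controls Tnmd averaged 65.0 ± 14.2 CPM, above the skull controls, and Creb5 8.85 ± 1.41 CPM, below them. The part of attached meninges in the skull levels of this list was not tested.

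Of the hyaluronan genes other than the members, 7 of 26 tested rose and 3 fell (median 0.25). Cemip2, a hyaluronan-degrading enzyme of the cell surface, rose from 111 ± 9.26 to 173 ± 4.03 CPM (0.63 ± 0.11, adjusted p = 0.00168). Layn, the hyaluronan receptor layilin, rose from 6.45 ± 0.809 to 12 ± 1.70 CPM (0.90 ± 0.19, adjusted p = 0.00623), and Hmmr, a hyaluronan-binding protein of dividing cells, from 22.4 ± 3.88 to 36.1 ± 6.42 CPM (0.69 ± 0.15, adjusted p = 0.00782). At 0.5 h the list had 3 higher and 1 lower of 26, where 4.9% of all genes were called. Among those higher were Stab1 (0.44 ± 0.11, adjusted p = 0.0345) and Hmmr (0.59 ± 0.15, adjusted p = 0.0454). Neither of these calls was followed through the other settings. The one that fell with Has1 and Cd44 was Tnfaip6, whose product TSG-6 links proteins to hyaluronan, from 46.7 ± 10.3 to 24.5 ± 1.34 CPM (-0.93 ± 0.18, adjusted p = 0.0184). That call was lost without any one of the 0.5 h libraries (adjusted p 0.0586 to 0.0899).

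Tenascins, thrombospondins and other matricellular genes had 5 higher and 6 lower of 32 (median -0.28). Ccn1, an early gene of serum and strain, fell from 2257 ± 292 CPM in controls to 1329 ± 131 at 0.5 h (-0.76 ± 0.19, adjusted p = 0.0485) and 456 ± 144 at 24 h (-2.31 ± 0.20, adjusted p = 5.12e-05). Its call at 0.5 h was lost without any one of the controls or 0.5 h libraries (adjusted p 0.0532 to 0.190) or the 24 h library 1 (0.0642). Fbln7, a fibulin, went from 35.8 ± 2.22 to 17.9 ± 0.379 CPM (-1.0 ± 0.10, adjusted p = 4.81e-05). Tgfbi, which encodes a relative of periostin, rose from 167 ± 15.6 to 343 ± 50.5 CPM (1.04 ± 0.11, adjusted p = 0.000122), while Postn was at -0.17 ± 0.17. Crosslinking enzymes and small proteoglycans had 1 higher and 4 lower of 26 (median 0.06). Chad, a leucine-rich cartilage protein, was among those that fell, from 66.6 ± 7.24 to 29.0 ± 7.32 CPM (-1.20 ± 0.18, adjusted p = 0.00171).

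Growth genes of the Hmga and let-7 list had 4 higher and 2 lower of 19 (median 0.18). Cyclin D1, Ccnd1, rose from 27.3 ± 5.98 to 97.6 ± 15.2 CPM (1.84 ± 0.16, adjusted p = 4.33e-05). Myc fell, from 76.1 ± 7.59 to 33.4 ± 2.60 at 0.5 h (-1.19 ± 0.10, adjusted p = 0.000392) and 34.9 ± 2.69 CPM at 24 h (-1.12 ± 0.10, adjusted p = 3.34e-05). Ligands, receptors and feedback genes of TGF-beta, activin and BMP had 3 higher and 7 lower of 32 (median -0.05). Inhba, the activin A subunit, rose from 32.2 ± 2.38 to 97.2 ± 10.8 CPM (1.59 ± 0.12, adjusted p = 6.32e-06). Bmp6 fell from 25.8 ± 4.10 to 11.7 ± 1.67 CPM (-1.14 ± 0.16, adjusted p = 0.000629), and the BMP antagonist Nog from 20.8 ± 1.39 to 10.1 ± 2.81 CPM (-1.05 ± 0.18, adjusted p = 0.00211).

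Integrins, syndecans and related receptors had 3 higher and 4 lower of 20 (median 0.00). The syndecans split: Sdc1 rose from 79.1 ± 10.2 to 128 ± 3.46 CPM (0.70 ± 0.09, adjusted p = 0.000437), and Sdc4, a receptor for fibronectin, fell from 374 ± 61.8 to 157 ± 34.5 CPM (-1.25 ± 0.16, adjusted p = 0.000617). Sdc4 was already at 175 ± 12.1 CPM at 0.5 h (-1.10 ± 0.16, adjusted p = 0.00626). Genes of cranial suture and periosteal progenitors had 4 higher and 0 lower of 20 (median 0.05), a share near the 20.9% of all genes. The smallest p were those of Mcam, a pericyte adhesion protein, from 28.6 ± 1.56 to 45.5 ± 1.58 CPM (0.67 ± 0.10, adjusted p = 0.000744), and Prrx1, a transcription factor of limb and skull mesenchyme, from 283 ± 44.2 to 463 ± 32.5 CPM (0.71 ± 0.12, adjusted p = 0.00134).

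**Figure D4:**
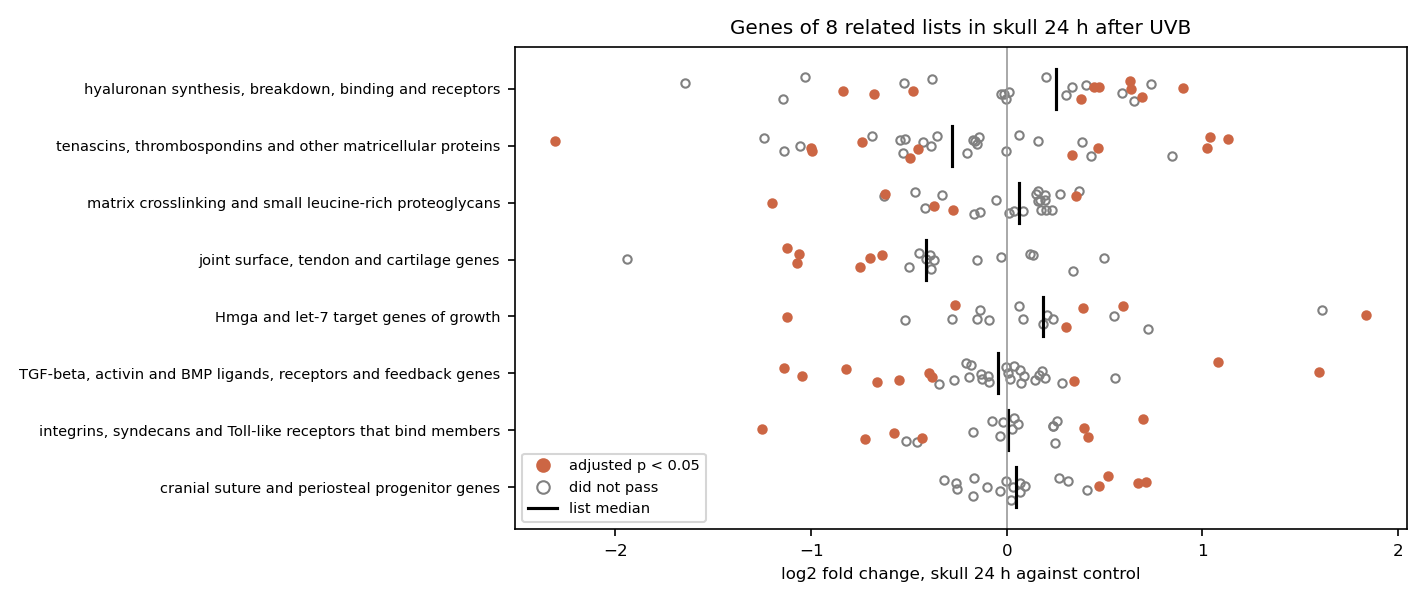
Log2 fold change in skull at 24 h against control for the tested genes of 8 related lists, 1 point a gene, with filled points for an adjusted p under 0.05 and a line at each list's median. The joint surface, tendon and cartilage list has 0 genes higher and 6 lower, and the progenitor list 4 of 20 higher and 0 lower, where 20.9% of all tested genes were called.

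In meninges at 24 h, where Prg4 rose, the joint surface list again had 0 higher and 3 lower of 20 (median -0.30), where 8.42% of all genes were called, with Cilp2 from 325 ± 63.9 to 183 ± 35.5 CPM (-0.83 ± 0.17, adjusted p = 0.0153). That call was lost without meninges control 1 or 2 or the 24 h library 3 (adjusted p 0.0586 to 0.0603). Scx had 4.54, 7.18 and 5.79 CPM in the controls and 11, 8.71 and 7.80 CPM at 24 h, higher in every library, but did not pass (0.65 ± 0.21, adjusted p = 0.0899). Ccn1 fell from 1748 ± 103 to 699 ± 153 CPM (-1.32 ± 0.16, adjusted p = 0.00108), in a matricellular list with 0 higher and 4 lower of 33. Inhba rose from 4.79 ± 0.768 to 11.8 ± 0.311 CPM (1.30 ± 0.17, adjusted p = 0.00169), in a TGF-beta list with 3 higher and 4 lower of 32. Ccnd1 rose from 36.7 ± 5.32 to 70.4 ± 9.0 CPM (0.94 ± 0.14, adjusted p = 0.00329). Of 27 other hyaluronan genes 1 rose, the lymphatic receptor Lyve1 (0.80 ± 0.11, adjusted p = 0.00212). Loxl4, a lysyl oxidase, fell from 18.5 ± 5.38 to 5.81 ± 0.634 CPM (-1.67 ± 0.22, adjusted p = 0.00153).

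The genes most like each member over the 9 skull libraries are given as a description, by Pearson r of log2 CPM among 13881 genes. For Prg4 and Hmga2 the libraries of 24 h stood apart from the other 6, so these r largely record that step. Nearest to Prg4 were Eif3a (r = 0.99, Spearman rho = 0.92), Abce1 (0.99, 0.93), Psmc2 (0.99, 0.97), Heatr3 (0.99, 0.80) and Tnfrsf22 (0.98, 0.85). Tnfrsf22 went from 4.63 and 4.66 CPM in controls and at 0.5 h to 11.5 CPM at 24 h. Eif3a, a translation initiation subunit, went from 314 to 386 CPM. Nearest to Hmga2 were Bzw2 (0.98, 0.98), Ncstn (0.96, 0.88), Srebf2 (0.96, 0.85), Spint1 (0.96, 0.87), Cenpx (0.95, 0.87) and Mmp17 (0.95, 0.87), and nearest to Has2 were Dctpp1 (0.97, 0.97), Dcakd (0.97, 0.93) and Rtn4r (0.96, 0.95).

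Cd44 ran closest to Mfrp (0.98, 0.98), Sil1 (0.98, 0.85) and Baiap2 (0.97, 0.88), and Baiap2 averaged 81.5, 36.3 and 46.9 CPM in controls, at 0.5 h and at 24 h. Has1 ran closest to Slc25a3 (0.97, 0.97), Smdt1 (0.97, 0.98) and Tmem248 (0.96, 0.95). Tnc ran closest to Dctn1 (0.92, 0.95), Slc4a3 (0.88, 0.77) and Dmc1 (0.86, 0.93), and Postn to Atf2 (0.96, 0.83), mt-Nd5 (0.96, 0.88) and Thoc2 (0.95, 0.93), all within groups that barely differed.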

How the data were processed

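Poly(A) RNA of 27 mouse libraries was sequenced, and the deposited values are raw counts per gene symbol made by the authors with HISAT2 2.1.0 on mm10, per the submitters' processing notes. Neither a counting tool nor an annotation or strand setting is given in the sources used here. The key of the table matched the labels for all 27 columns. The members and lists were chosen with earlier results of these data known.

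The main test was edgeR's quasi-likelihood F test (edgeR 4.0.16, R 4.3.3), with TMM scaling, filterByExpr at a minimum count of 10 and a minimum total of 15, and the robust option. Adjusted p are Benjamini-Hochberg values over every gene tested in a comparison, with 0.05 as the threshold. Each tissue was fitted from its 9 libraries. Untreated tissues and the difference of the 24 h change between meninges and brain were tested in 1 fit of all 27 libraries. An SE is the size of the log2 fold change divided by the root of its F statistic. Totals of 14.2 M to 27.3 M counts leave the precision of genes at a few CPM limited by their counts.

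Named genes are the 7 members, the 6 nearest genes of Prg4 and Hmga2 and the 3 nearest of the others by Pearson r over skull (mean of at least 1 CPM, prior count 2), and up to 3 genes of a list with the smallest p among those called. A gene that met this rule is not reported here. Alternatives were scaling by RLE or without the genes of haemoglobin and mitochondria, fits with no filter or no robust option, limma-voom (limma 3.58.1) with quality weights, DESeq2 1.42.0, 2 groups alone, all 27 libraries, a replicate block and leaving out each library. The test was run on simulated data first. Gene models come from GENCODE M21 on GRCm38, which 90.0% of symbols matched, and promoters from RefSeq on GRCm38.p6.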

Additional observations from a re-analysis of the deposited data

How the results depend on the processing

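Counts of the 7 genes called moved in these settings. With no filter brain had 2 at 0.5 h and 3 at 24 h, where Has2 and Hmga2 entered with the high levels of brain control 1 and Postn passed at 24 h, and meninges had 0 at 24 h. With all 27 libraries the counts were 1 in brain at 24 h (Has2), 1 in meninges at 0.5 h (Has1), 0 in meninges at 24 h and 1 in skull at 0.5 h (Has1). With 2 groups alone they were 0 in meninges at 24 h and 1 in skull at 0.5 h, and DESeq2 had 1 for meninges 24 h against 0.5 h and 1 for the difference of meninges and brain. Leaving out each library gave 0 to 1 in meninges at 24 h, 0 to 1 for 24 h against 0.5 h, 0 to 2 in skull at 0.5 h and 0 to 1 for the difference.

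Replicate numbers did not pair the samples within a tissue: the r of same-numbered deviations ran from -0.10 to 0.07 in brain, -0.40 to 0.12 in meninges and -0.14 to 0.06 in skull. Between tissues at the same time, same-numbered r ran from -0.04 to 0.11 for brain and meninges, -0.06 to 0.04 for brain and skull and -0.13 to 0.15 for meninges and skull, with 1, 0 and 2 of 9 pairs over 0.1. For meninges and skull at 24 h they were 0.07 to 0.15, and differently numbered r were -0.14 to -0.01. In the controls of these tissues the ranges were -0.13 to 0.02 and -0.17 to 0.24. In the controls of brain and meninges they were 0.04 to 0.11 and -0.09 to -0.01, and at 0.5 h and 24 h the ranges of brain and meninges overlapped. The labels do not say whether tissues share an animal, and the fits of all 27 libraries took them as independent. With the replicate block the count in meninges at 24 h was 0, and Has2 in untreated skull against brain was 0.0673.

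By limma-voom Hmga2 in skull at 24 h was 3.99, and uncalled values changed sign for Cd44 in meninges at 24 h (0.11), Prg4 (0.10) and Postn (0.0700) in skull at 0.5 h and Has2 in untreated skull against brain (0.78).

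Leaving out each library moved Prg4 in skull at 24 h from 7.23 to 8.28 and Hmga2 from 3.34 to 4.37. Ranges that crossed 0 were: in skull at 24 h, Tnc -0.0601 to 0.114 and Postn -0.264 to 0.0291. In skull at 0.5 h they were Prg4 -0.75 to 0.56, Hmga2 -1.03 to 0.45 and Postn -0.18 to 0.18. In meninges at 24 h they were Postn -0.41 to 0.11 and Cd44 -0.14 to 0.15. In brain they were Prg4 -0.307 to 0.0148 at 0.5 h and Cd44 -2.05 to 0.66 at 24 h, and Has2 in untreated skull against brain ran from -0.73 to 2.35. The cause was not tested.

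Over all genes, the calls ranged, with the count as reported first, for 24 h against control from 477 to 301 to 1214 in brain, 1561 to 902 to 2277 in meninges and 3649 to 3079 to 4173 in skull under the other settings, and with a library left out over 153 to 437, 727 to 1376 and 2223 to 3667. For 0.5 h they were 1 (1 to 100), 162 (67 to 610) and 854 (530 to 1550), and with a library left out 0 to 9, 17 to 172 and 112 to 869. For 24 h against 0.5 h they were 40 (25 to 438), 434 (241 to 1041) and 2811 (2306 to 3815), and with a library left out 7 to 91, 73 to 476 and 1428 to 3313. The difference of meninges and brain had 283 (204 to 816), and with a library left out 156 to 323.

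Of the other lists, only genes named above were followed through the settings, and not Stab1 and Hmmr in skull at 0.5 h. Those followed kept their direction in every setting. Their calls were lost in 21 cases, with each setting of a gene counted apart. Among these were Hmmr, Abi3bp and Sdc1 in skull and Ccn1 in meninges at 24 h with all 27 libraries.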
